A study of Mus musculus with 5 samples.

Results

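The genes described here are 36 genes of cholesterol and fatty acid synthesis, taken by symbol from a table of 12621 genes measured in mouse mesenchymal stem cells. All 36 were found in the table, and all 36 passed the filter on low values, as did 12484 genes in all. They were sorted by role into 6 genes that make isoprenoid units from acetyl-CoA (the mevalonate steps), 11 that turn these units into squalene and sterols, 5 regulators, 3 that make saturated fatty acids, 7 desaturases and elongases and 4 acyl-CoA synthetases. Mesenchymal stem cells are adherent stromal cells that can form bone, cartilage and fat. The knockout (KO) cells lacked TSG-6, a secreted hyaluronan-binding protein encoded by Tnfaip6, and are represented by 3 libraries named C1, C2 and SE. The wild-type (WT) cells are represented by 2 libraries named C1 and SE. KO and WT libraries carry the same strain label, Balb/c (C.129S6), and no age, treatment or site of the deletion is given. The labels do not explain the suffixes C and SE, which are used here only as names. The design text of the study counts 2 biological replicates for a cell type. Since no label ties a library to an animal or a culture, p-values here reflect how far the libraries spread, and that spread may be technical.

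Cholesterol and fatty acids are both built from cytosolic acetyl-CoA, which Acly splits from citrate. HMG-CoA synthase acts at the start of the mevalonate pathway, whose isoprenoid products also feed protein prenylation, dolichol and ubiquinone. When sterols in the endoplasmic reticulum are low, Scap escorts the SREBP transcription factors to the Golgi for cleavage, and the released factors switch on most genes of both pathways. When sterols are plentiful, the Insig proteins hold Scap back. Stromal cells that turn into fat cells raise fatty acid and triglyceride synthesis.

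Values are normalised counts, read counts that the authors divided by a library size, from libraries of 13605555 to 26658725 reads assigned to genes. The 36 genes together held between 90444 and 123428 reads in a library, and the lowest number for any of them was 56 reads, for Acaca in KO C1. Tnfaip6 itself was listed at 1.65, 2.38 and 1.36 in KO C1, C2 and SE, against 6.04 and 3.21 in WT C1 and SE, a difference that missed the threshold (adjusted p = 0.0578), and since the deleted part is not given, reads on the gene do not show whether the deletion is complete. Of 10 markers of mesenchymal stem cells tested, 4 were lower in KO and 0 higher, against 17.1% and 17.2% of all genes. Among the 4 were Nt5e and Alcam, which were below 1 in every KO library (Alcam was at 0 in KO C1 and KO SE). The list was split, since Pdgfrb and Vcam1 had all KO libraries above both WT libraries. Pdgfrb was at 239.5 to 860 in KO and 49.0 to 144.5 in WT (adjusted p = 0.0550). Adipocyte markers moved strongly with genotype. Of 11 tested, 9 were higher in KO, their summed level was 4934 to 11043 in KO libraries and 139.6 to 179 in WT libraries, and Cd36 and Cidec were at 0 in both WT libraries. Summed levels of 4 macrophage markers were 50.1 to 59.1 in KO libraries and 66.9 to 94.4 in WT libraries, but the markers moved in opposite directions. Cd14, most of the WT sum, was lower in KO, at 11.3 to 14.0 against 63.8 to 89.2 in WT. Lyz2 was higher in KO, at 24.4 to 34.2 against 0 to 0.162 in WT. Csf1r was also higher, at 3.73 to 9.50 against 0.0405 to 0.518, and Cd68 was not called. The only endothelial marker tested, Vwf, stayed at or below 3.80. Its values were 0.376, 1.13 and 3.80 in KO C1, C2 and SE, against 0.0405 and 0 in WT C1 and SE. All KO values lay above both WT values, and the difference missed the threshold (log2 fold change 1.82, adjusted p = 0.0653). Of 6 markers of cycling cells, 4 were lower in KO, and their summed level was 513 to 849 in KO libraries and 1407 to 1704 in WT libraries. Their part in the results on the 36 genes was not tested. In bulk RNA, fewer cells of a type and less RNA per cell cannot be told apart.

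The 36 genes separated the libraries first by suffix and then by genotype. On their log2 values, the first principal component (59.1% of the variance) parted the SE libraries from the C libraries, and the second (34.5%) parted KO from WT. Over all tested genes the order was the other way round, with 80.4% on a component that parted KO from WT and 14.7% on the next. Over the 36 genes, the log2 values of KO SE had a Pearson correlation of 0.931 with WT SE, against 0.850 and 0.857 with KO C1 and KO C2. Seen from WT, the gap was smaller, since WT SE correlated with WT C1 at 0.918. WT C1 correlated with KO C1 and KO C2 at 0.877 and 0.860. Over all genes, KO SE and WT SE correlated at 0.783, against 0.946 and 0.947 for KO SE with KO C1 and KO C2. These correlations are across genes, which are not independent replicates. The summed level of the 36 genes was 4818, 3972 and 6837 in KO C1, C2 and SE, and 3666 and 6393 in WT C1 and SE. In levels per kilobase of exon, Scd2 was highest with a mean of 98.9 over the 5 libraries, followed by Sqle (83.2), Cyp51 (76.8) and Fads1 (73.8), and Acaca (0.357), Tm7sf2 (3.02) and Fdps (3.22) were lowest.

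**Figure D1:**
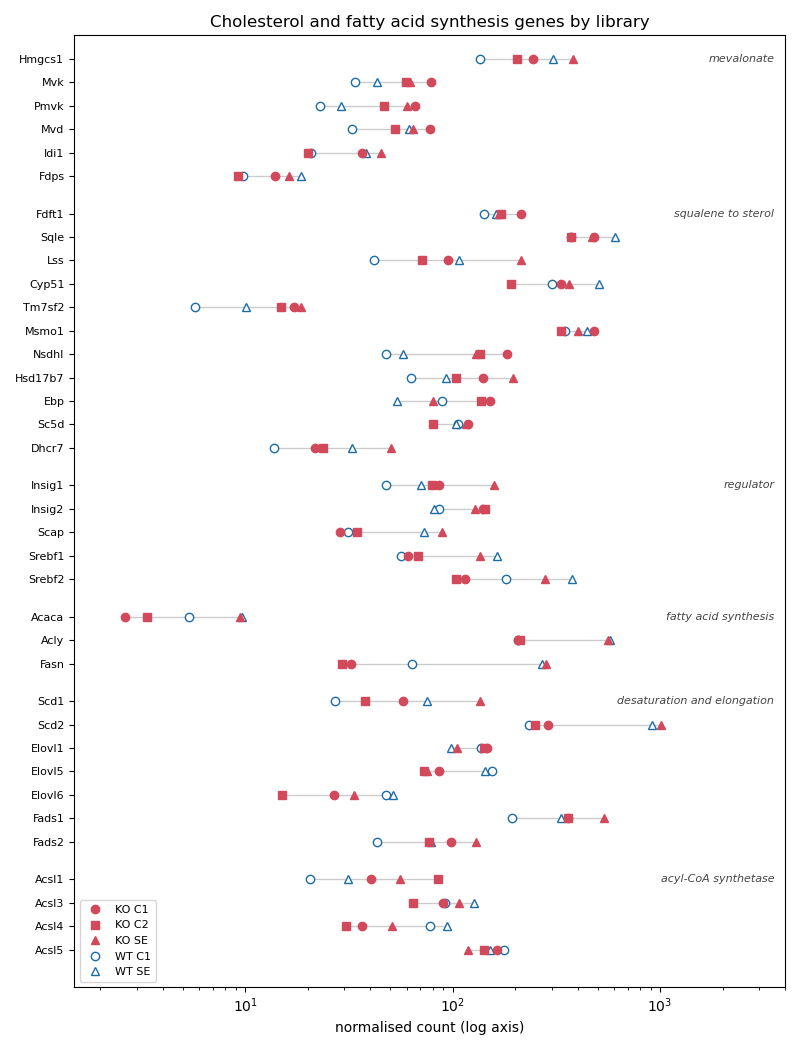
Normalised counts (log axis) of the 36 genes in each library, by role; filled symbols are KO libraries, open symbols WT libraries, triangles SE libraries, and the grey line spans all 5 values. Nsdhl, Pmvk, Tm7sf2 and Insig2 have all 3 KO libraries above both WT libraries, Elovl5 and Acsl4 have them below, and for Acly, Fasn and Scd2 the triangles of both genotypes lie together, away from the other symbols.

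The first comparison asked which of these genes differ between cells without TSG-6 and wild-type cells. In KO, 4 were higher, namely Nsdhl, Pmvk, Tm7sf2 and Insig2, and 2 were lower, Elovl5 and Acsl4, at an adjusted p under 0.05 (limma, adjusted over all 12484 genes). Over all genes tested, 17.2% were called higher and 17.1% lower, so that 6 of 36 is below the background of 34.3%. The median log2 fold change of the 36 genes was 0.18, against -0.09 for all genes (0.28 and -0.06 with quantile normalization). Genes whose 3 KO libraries lay entirely above both WT libraries numbered 10 of the 36, against 28% of all genes, and those entirely below numbered 3, against 30.7% (58.8% of all genes in either direction). The counts changed when single libraries were left out, which leaves fewer samples. The shares of all genes called without a library are not given here. Without WT C1 and without WT SE, 1 WT library was left, and log2 fold changes were 0.96 and 1.29 for Pmvk. They were 0.71 and 1.47 for Tm7sf2, 0.74 and 0.68 for Insig2, -0.89 and -0.99 for Elovl5, and -1.28 and -1.01 for Acsl4. Without KO C1, 2 genes were called higher and 1 lower. Without KO C2 the counts were 2 and 0 (5 and 2 at an unadjusted p under 0.05), and without KO SE they were 6 and 6.

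The mevalonate steps held 1 call among 6 genes. Pmvk had 65.7, 46.9 and 60.6 normalised counts in KO C1, C2 and SE, against 23.0 and 29.1 in WT C1 and SE. All KO values lay above both WT values, with a fold of 2.21 and a log2 fold change of 1.13 (standard error 0.26, adjusted p = 0.0181). Pmvk, phosphomevalonate kinase, lies on chromosome 3 (89454541 to 89469013, plus strand, GRCm38). Its adjusted p was 0.127 without WT C1, 0.0612 without WT SE and 0.0663 without KO C1. Mvk, mevalonate kinase, which acts just before it, had KO values of 59.4 to 78.7 and WT values of 33.9 to 43.3, which do not overlap, and missed the threshold (adjusted p = 0.0522). In KO C1, C2 and SE, Hmgcs1 was at 245, 203 and 381 normalised counts, against 136 and 306 in WT C1 and SE. This gene encodes the cytosolic HMG-CoA synthase, and its groups overlapped, with SE above C in both (log2 fold change 0.39, adjusted p = 0.518). Mvd, Idi1 and Fdps, which make and join the isoprenoid units, had log2 fold changes between -0.07 and 0.50, with adjusted p-values of 0.293 and above.

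Among the 11 genes from squalene to sterols, Nsdhl and Tm7sf2 were called. Normalised counts of Nsdhl were 183, 136 and 129.9 in KO C1, C2 and SE and 47.5 and 57.8 in WT C1 and SE. Every KO value was more than 2 times every WT value, and the means were 149.6 ± 28.9 in KO (SD, n = 3) and 52.6 ± 7.22 in WT (SD, n = 2). The log2 fold change was 1.49 (standard error 0.25, adjusted p = 0.00520), and it passed the threshold under all 19 alternatives, with log2 fold changes of 1.34 to 1.72. Nsdhl, a sterol dehydrogenase that helps to remove methyl groups from the sterol ring, lies on chromosome X (72918557 to 72958514, plus strand). The median log2 fold change of the tested genes on chromosome X was 0.25, and that of the 50 tested genes around Nsdhl was 0.11. The KO C1, C2 and SE libraries held 17.1, 14.9 and 18.6 normalised counts of Tm7sf2, against 5.76 and 10.0 in WT C1 and SE. Tm7sf2, a sterol C14 reductase on chromosome 19 (6062821 to 6068373, minus strand), was low in all libraries, with a fold of 2.13 and a log2 fold change of 1.09 (standard error 0.33, adjusted p = 0.0455). Its adjusted p rose above 0.05 without any 1 of the 5 libraries, to between 0.0549 (without KO SE) and 0.275 (without WT C1), and it was 0.0572 with edgeR on the recovered reads.

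For Hsd17b7, the values were 139, 104 and 195 in KO C1, C2 and SE, against 63.1 and 92.4 in WT C1 and SE. Hsd17b7, which reduces the keto group left by Nsdhl, had all KO values above both WT values, and missed the threshold with a log2 fold change of 0.89 (standard error 0.33, adjusted p = 0.0811). Lss stood at 94.9, 71.4 and 213 in KO C1, C2 and SE, and at 41.8 and 107 in WT C1 and SE. Lss, lanosterol synthase, had overlapping groups in which each SE value was more than 2 times the C values of its genotype. Dhcr7 had 21.8, 23.8 and 50.7 normalised counts in KO C1, C2 and SE, against 13.8 and 32.7 in WT C1 and SE. Dhcr7 reduces a double bond at the end of the route to cholesterol, and likewise had SE above C in both genotypes. In KO C1, C2 and SE, Ebp was at 151, 137 and 80.3 normalised counts, against 88.4 and 53.7 in WT C1 and SE. Ebp, the sterol isomerase on chromosome X, ran the other way, with SE the lowest library of each genotype. In none of these 3 genes did KO against WT pass the threshold (adjusted p = 0.347 for Lss, 0.510 for Dhcr7 and 0.143 for Ebp).

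Sqle, Msmo1, Cyp51, Fdft1 and Sc5d did not pass the threshold in KO against WT. Normalised counts of Sqle were 481, 372 and 472 in KO C1, C2 and SE and 373 and 609.5 in WT C1 and SE. Sqle, squalene epoxidase, had its highest value in WT SE. The KO C1, C2 and SE libraries held 482, 332 and 402 normalised counts of Msmo1, against 348 and 443 in WT C1 and SE. For Cyp51, the values were 332, 192 and 363 in KO C1, C2 and SE, against 301 and 506 in WT C1 and SE. Msmo1 and Cyp51 remove methyl groups from lanosterol, and the KO and WT values overlapped for both. Fdft1 stood at 214, 170.4 and 168 in KO C1, C2 and SE, and at 142 and 161 in WT C1 and SE. Sc5d had 119, 80.2 and 116 normalised counts in KO C1, C2 and SE, against 106 and 104 in WT C1 and SE. Fdft1, which makes squalene, had all KO values above both WT values, and Sc5d, which desaturates the sterol ring, had overlapping groups. Log2 fold changes of these 5 genes ran from -0.45 for Cyp51 to 0.27 for Fdft1, with adjusted p-values from 0.381 to 0.954.

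Nsdhl is the gene of this set with the smallest p-value in the KO comparison, and its upstream sequence is shown for that reason. The RefSeq sequence of the 250 bases before its start lies at chrX:72918271-72918520 (plus strand, GRCm38.p6), with matches to the CCAAT box and to the GC box GGGCGG in capitals, on either strand.
Nsdhl: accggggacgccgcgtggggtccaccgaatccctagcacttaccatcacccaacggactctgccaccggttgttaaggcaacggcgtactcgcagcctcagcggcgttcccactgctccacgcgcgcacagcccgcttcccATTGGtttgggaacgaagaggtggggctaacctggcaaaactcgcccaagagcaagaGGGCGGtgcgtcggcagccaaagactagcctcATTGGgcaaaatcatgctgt
The CCAAT box, CCAAT or ATTGG, started at -109 and -20 from the start, and the GC box at -52. No match to the sterol regulatory element TCACNCCAC was in this window, which says only that these letters are not in these 250 bases.

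Of the 5 regulators, only Insig2 passed the threshold. In KO C1, C2 and SE, Insig2 was at 141, 143 and 128 normalised counts, against 85.6 and 81.7 in WT C1 and SE. The KO values lay close together and all above WT (means 137 ± 8.08 in KO (SD, n = 3) and 83.6 ± 2.74 in WT (SD, n = 2)), with a log2 fold change of 0.71 (standard error 0.20, adjusted p = 0.0347). Insig2, an endoplasmic reticulum protein that holds back Scap, lies on chromosome 1 (121304353 to 121332589, minus strand), where the median log2 fold change of tested genes was 0.34. Among the 50 tested genes around it the median was 0.37. Its adjusted p was 0.157 without WT C1, 0.182 without WT SE, 0.115 without KO C1 and 0.138 without KO C2. Normalised counts of Insig1 were 86.4, 79.2 and 159 in KO C1, C2 and SE and 47.7 and 70.3 in WT C1 and SE. Insig1, the related protein that is itself a target of SREBP, had all KO values above WT with a wider spread (log2 fold change 0.82, standard error 0.37, adjusted p = 0.129). The KO C1, C2 and SE libraries held 114, 103 and 279 normalised counts of Srebf2, against 182 and 375 in WT C1 and SE. Srebf2, which encodes the SREBP that favours sterol genes, had the higher value in WT for each suffix, with overlapping groups (log2 fold change -0.81, standard error 0.51, adjusted p = 0.267). For Srebf1, the values were 61.3, 68.0 and 136 in KO C1, C2 and SE, against 56.5 and 164 in WT C1 and SE. Scap stood at 28.6, 34.7 and 89.4 in KO C1, C2 and SE, and at 31.4 and 73.1 in WT C1 and SE. Srebf1, the SREBP gene more tied to fatty acid synthesis, and Scap overlapped between genotypes, with log2 fold changes of -0.22 and -0.10.

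None of the 3 genes of fatty acid synthesis was called. Acly had 207, 211 and 559.5 normalised counts in KO C1, C2 and SE, against 206 and 571 in WT C1 and SE. Acly gives cytosolic acetyl-CoA, and its KO and WT values nearly coincided within each suffix. In KO C1, C2 and SE, Fasn was at 32.4, 29.4 and 283 normalised counts, against 63.7 and 270.4 in WT C1 and SE. Fasn, fatty acid synthase, had its KO C values below WT C1, while KO SE and WT SE lay close together. Normalised counts of Acaca were 2.63, 3.37 and 9.46 in KO C1, C2 and SE and 5.35 and 9.63 in WT C1 and SE. Acaca, acetyl-CoA carboxylase, which makes malonyl-CoA, was the lowest of all 36 genes. Log2 fold changes were -0.24 for Acly, -1.01 for Fasn and -0.64 for Acaca, with standard errors of 0.59, 1.08 and 0.56.

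Among the desaturases and elongases, Elovl5 was lower in KO. The KO C1, C2 and SE libraries held 85.6, 73.0 and 74.9 normalised counts of Elovl5, against 154 and 144 in WT C1 and SE. The groups did not overlap, the means were 77.8 ± 6.78 in KO (SD, n = 3) and 149 ± 7.26 in WT (SD, n = 2), and the log2 fold change was -0.94 (standard error 0.21, adjusted p = 0.0149). Elovl5, which lengthens polyunsaturated fatty acids, lies on chromosome 9 (77917364 to 77984519, plus strand), and the 50 tested genes around it had a median of -0.31. Its adjusted p was 0.114 without WT C1, 0.0832 without WT SE and 0.0737 without KO C2. Elovl6, which lengthens saturated chains made by Fasn, had KO values of 15.0 to 33.4 and WT values of 47.8 to 51.7, which do not overlap, and missed the threshold (log2 fold change -1.05, standard error 0.37, adjusted p = 0.0705). For Fads1, the values were 358, 359 and 534 in KO C1, C2 and SE, against 192 and 333 in WT C1 and SE. Fads2 stood at 98.3, 76.9 and 129 in KO C1, C2 and SE, and at 43.4 and 78.7 in WT C1 and SE. These 2 genes encode the front-end desaturases of polyunsaturated fatty acid synthesis, and KO was above WT within each suffix for both (log2 fold changes 0.69 and 0.76, adjusted p-values 0.150 and 0.138). Scd1 had 57.6, 37.6 and 136 normalised counts in KO C1, C2 and SE, against 27.1 and 74.9 in WT C1 and SE. In KO C1, C2 and SE, Scd2 was at 289.8, 251 and 1010.2 normalised counts, against 233 and 919 in WT C1 and SE. Normalised counts of Elovl1 were 146, 142 and 105 in KO C1, C2 and SE and 137 and 97.8 in WT C1 and SE. Scd1 and Scd2, stearoyl-CoA desaturases that are similar in sequence, so that the division of reads between them is uncertain, and Elovl1, an elongase of very long chains, had adjusted p-values of 0.533 to 0.908.

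Acyl-CoA synthetases join coenzyme A to fatty acids before use. The KO C1, C2 and SE libraries held 36.5, 30.6 and 51.1 normalised counts of Acsl4, against 78.2 and 94.3 in WT C1 and SE. Acsl4, which prefers arachidonic acid, was lower in KO, with means of 39.4 ± 10.5 in KO (SD, n = 3) and 86.2 ± 11.3 in WT (SD, n = 2), no overlap and a log2 fold change of -1.15 (standard error 0.29, adjusted p = 0.0234). It lies on chromosome X (142317993 to 142390535, minus strand), and the 50 tested genes around it had a median of 0.32. The adjusted p was 0.0826 without WT C1, 0.138 without WT SE, 0.0647 without KO C1 and 0.0855 without KO C2. Acsl1, the main form in fat and liver, had KO values of 40.3 to 84.6 and WT values of 20.4 to 31.4, which do not overlap (log2 fold change 1.17, standard error 0.38, adjusted p = 0.0528). Its highest value was in KO C2, the library in which the summed adipocyte markers were also highest, and the part of these markers in its level was not tested. For Acsl5, the values were 163, 141 and 118 in KO C1, C2 and SE, against 177 and 152 in WT C1 and SE. Acsl5 and Acsl3 did not pass the threshold (log2 fold changes -0.23 and -0.33).

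Because SE and C libraries stood apart for these genes, the genotype comparison was also made with the suffix as a block. With the block, 15 of the 36 genes were higher in KO and 4 lower, where the block called 28.3% of all genes higher and 32.3% lower. The 4 genes higher and 2 lower without the block were among them. Those added on the higher side were Hmgcs1, Mvk, Lss, Hsd17b7, Ebp, Dhcr7, Insig1, Scd1, Fads1, Fads2 and Acsl1. On the lower side Srebf2 and Elovl6 were added. By role, 3 of 6 mevalonate genes and 6 of 11 squalene-to-sterol genes were higher and 0 lower in either, 2 regulators were higher and 1 lower, 0 of 3 fatty acid synthesis genes were called, 3 desaturases were higher and 2 elongases lower, and 1 acyl-CoA synthetase moved each way. Blocked log2 fold changes were 1.48 for Nsdhl (adjusted p = 7.79e-04), 0.98 for Lss (0.00184), 0.99 for Hsd17b7 (0.00186), 0.95 for Insig1 (0.00142) and -0.60 for Srebf2 (0.00672). Without the block, the 50 tested genes around Lss had a median log2 fold change of 0.74, against 0.75 for Lss itself. Such medians were 0.56 around Hsd17b7 (itself 0.89), -0.14 around Insig1 (0.82), -0.32 around Srebf2 (-0.81) and 0.11 around Nsdhl (1.49). The part of the neighbourhood in these values was not tested. For 29 of the 36 genes, KO against WT had the same sign within the C libraries as within the SE libraries. The share of all genes with the same sign is not given here, so this count is not particular to the 36 genes. The log2 difference for Nsdhl was 1.72 within C and 1.16 within SE, and that for Elovl5 was -0.96 and -0.94. The block leaves 2 residual degrees of freedom, and within SE there was 1 library of each genotype.

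**Figure D2:**
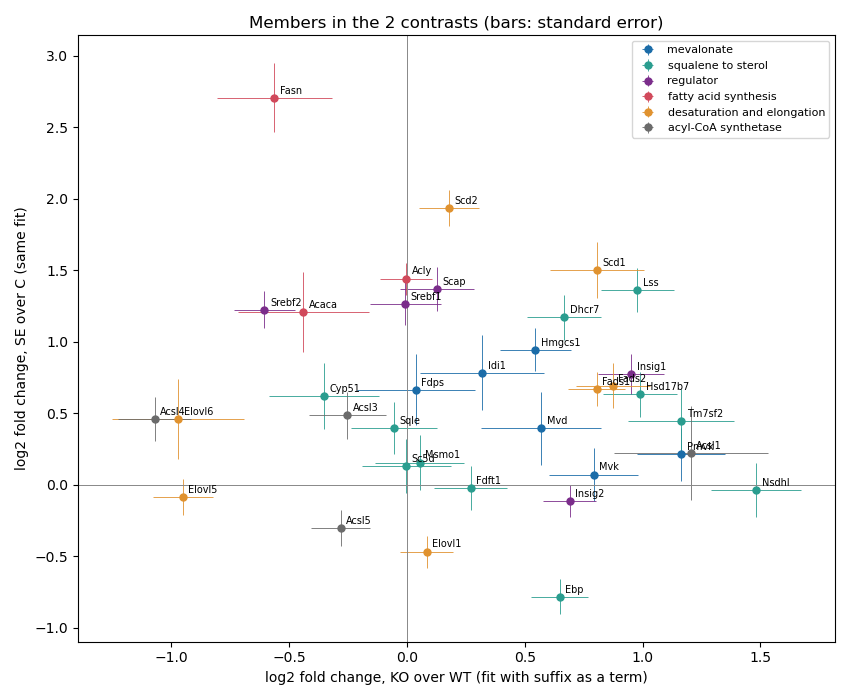
Log2 fold change of KO over WT (horizontal) and of SE over C (vertical) for the 36 genes, from 1 fit with genotype and suffix as terms; bars are standard errors and colours give the role. Nsdhl, Pmvk and Tm7sf2 lie to the right near 0 or under 0.5 on the vertical axis, and Fasn, Scd2, Acly and Scap lie high with KO over WT between -0.56 and 0.18.

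The second comparison set the SE libraries against the C libraries, with genotype as a term. In SE, 15 of the 36 genes were higher and 2 lower, where 17.4% of all genes were called higher and 15.5% lower (32.8% in all). The median log2 fold change of the 36 genes was 0.55, against -0.04 for all genes. Within KO, where 1 SE library stands against 2 C libraries, the median was 0.55, and within WT, with 1 library of each suffix, it was 0.73. For 22 of the 36 genes, SE lay above every C library in both genotypes, against 33.1% of all genes, and for 4 it lay below, against 37% (70.1% of all genes in either direction). The 15 genes were Hmgcs1 among the mevalonate genes, Lss, Hsd17b7 and Dhcr7 among the sterol genes, 4 of the 5 regulators (Srebf1, Srebf2, Scap and Insig1), all 3 fatty acid synthesis genes, and Scd1, Scd2, Fads1 and Fads2. Ebp and Elovl1 were lower. Without KO SE, WT SE was the only SE library, and none of these calls held. The log2 fold changes were then those of WT SE over WT C1, such as 2.08 for Fasn and -0.71 for Ebp. Without WT C1 or without WT SE, the other WT library holds no information on the suffix. Both fits then set KO SE against KO C1 and KO C2 and are not separate checks. The log2 fold change of Hmgcs1, for one, was 0.77 in both.

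The SE libraries were the shallower ones, with 13605555 reads in KO SE and 17986301 in WT SE, against 21991615 to 26658725 in the C libraries, and the part of depth in the difference was not tested. The difference between SE and C also moved with gene length over the whole table. Across 12470 genes, the log2 fold change of SE over C had a Spearman correlation of 0.541 with the summed exon length, against -0.0761 for KO over WT. With the genes cut by exon length into 5 bins of like size, from the shortest to the longest, the median log2 fold change of SE over C was -0.48, -0.23, 0.05, 0.25 and 0.44. Of the 36 genes, 30 lay above the median of their own length bin, and Acsl1, Acsl5, Ebp, Elovl1, Fdft1 and Msmo1 did not. After each library was corrected for exon length and GC content, an alternative chosen after the data were seen, 16 of the 36 genes were higher in SE and 0 lower, where 10.4% of all genes were called higher and 7.67% lower. The corrected median was 0.54 for the 36 genes and 0.03 for all genes. Of the 15 genes called before, 13 were called again. Srebf2 and Acaca were no longer past the threshold, Ebp and Elovl1 were not called either, and Idi1, Acsl3 and Acsl4 were added.

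**Figure D3:**
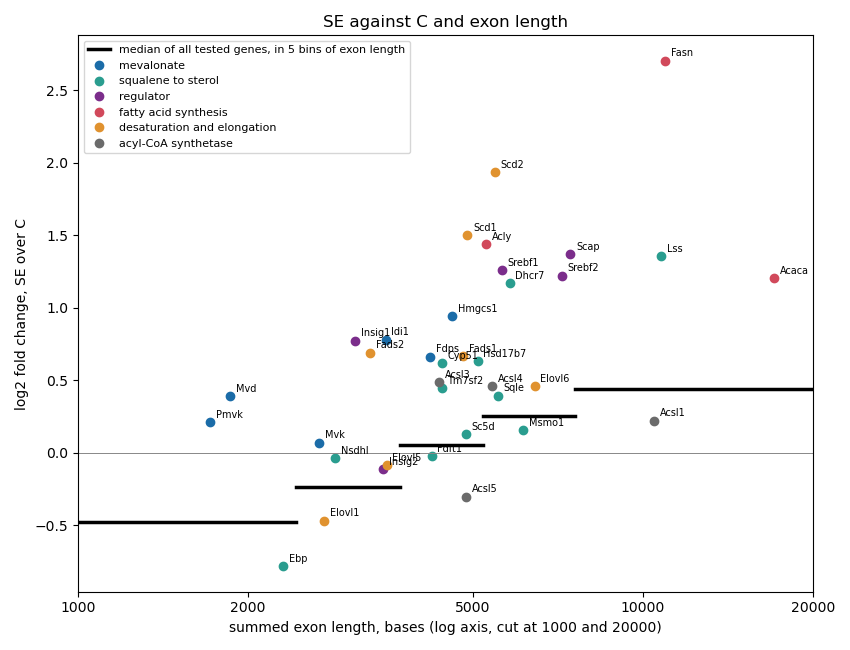
Log2 fold change of SE over C (vertical) against summed exon length in bases (log axis) for the 36 genes, with colours for the role and a black line at the median of all tested genes in each of 5 bins of exon length. The black lines climb from -0.48 to 0.44, and 30 of the 36 genes lie above the line of their bin.

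All 3 fatty acid synthesis genes were higher in SE, and Fasn had the largest log2 fold change of the 36 genes. Fasn was 283 in KO SE, against 32.4 and 29.4 in KO C1 and C2, and 270.4 in WT SE, against 63.7 in WT C1, a fold of 9.16 within KO and 4.24 within WT, with a log2 fold change of 2.71 (standard error 0.24, adjusted p = 0.00316) and 1.82 after correction (adjusted p = 0.0118). Acly was 559.5 in KO SE, against 207 and 211 in KO C1 and C2, and 571 in WT SE, against 206 in WT C1, folds of 2.68 and 2.77, with a log2 fold change of 1.44 (standard error 0.11, adjusted p = 0.00316) and 1.23 after correction (adjusted p = 0.0118). Acaca rose by 1.21 on the log2 scale (standard error 0.28, adjusted p = 0.0209), and its corrected value was 0.67 (adjusted p = 0.0911). Its exons are the longest of the 36 genes, at 17074 bases. Fasn lies on chromosome 11 (120805846 to 120824547, minus strand), as do Acly (100476353 to 100528000, minus strand) and Acaca.

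Of the desaturases and elongases, 4 were higher in SE and 1 lower. Scd2 was 1010.2 in KO SE, against 289.8 and 251 in KO C1 and C2, and 919 in WT SE, against 233 in WT C1, folds of 3.74 and 3.94, with a log2 fold change of 1.94 (standard error 0.13, adjusted p = 0.00316) and 1.77 after correction (adjusted p = 0.0118). Scd1 had folds of 2.86 within KO and 2.77 within WT (adjusted p = 0.00531), and its log2 fold change after correction was 1.47 (adjusted p = 0.0121). Fads1 and Fads2 rose less, with log2 fold changes of 0.67 and 0.69 (adjusted p = 0.0107 and 0.0198). Both stayed past the threshold after correction (0.53 and 0.78). From the KO libraries alone, as left without WT C1 or without WT SE, neither passed, with log2 fold changes of 0.58 and 0.57. Elovl1 had folds of 0.728 and 0.713 (log2 fold change -0.47, adjusted p = 0.0225), and its corrected value was -0.14 (adjusted p = 0.398).

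Among the regulators, Srebf1 was 136 in KO SE, against 61.3 and 68.0 in KO C1 and C2, and 164 in WT SE, against 56.5 in WT C1, with a log2 fold change of 1.26 (standard error 0.15, adjusted p = 0.00402) and 0.65 after correction (adjusted p = 0.0237). Srebf2 was 279 in KO SE, against 114 and 103 in KO C1 and C2, and 375 in WT SE, against 182 in WT C1, with a log2 fold change of 1.22 (standard error 0.13, adjusted p = 0.00369) and 0.49 after correction (adjusted p = 0.0573). Scap was 89.4 in KO SE, against 28.6 and 34.7 in KO C1 and C2, and 73.1 in WT SE, against 31.4 in WT C1, with a log2 fold change of 1.37 (standard error 0.16, adjusted p = 0.00393) and 0.56 after correction (adjusted p = 0.0318). Insig1 was 159 in KO SE, against 86.4 and 79.2 in KO C1 and C2, and 70.3 in WT SE, against 47.7 in WT C1, with a log2 fold change of 0.77 (standard error 0.14, adjusted p = 0.0112) and 1.13 after correction (adjusted p = 0.0118). Insig2 had folds of 0.902 within KO and 0.955 within WT (log2 fold change -0.11, standard error 0.11, adjusted p = 0.473).

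In the sterol pathway, Lss was 213 in KO SE, against 94.9 and 71.4 in KO C1 and C2, and 107 in WT SE, against 41.8 in WT C1, with a log2 fold change of 1.36 (standard error 0.15, adjusted p = 0.00393) and 0.89 after correction (adjusted p = 0.0187). Dhcr7 rose by 1.17 on the log2 scale (standard error 0.16, adjusted p = 0.00546; corrected 0.85, adjusted p = 0.0159). Hmgcs1 rose by 0.94 (standard error 0.15, adjusted p = 0.00821) and by 1.08 after correction (adjusted p = 0.0118). Hsd17b7 rose by 0.63 (standard error 0.16, adjusted p = 0.0256) and by 0.65 after correction (adjusted p = 0.0273). From the KO libraries alone, as left without WT C1 or without WT SE, Hmgcs1 and Hsd17b7 rose by 0.77 and 0.69 and missed the threshold. Ebp was 80.3 in KO SE, against 151 and 137 in KO C1 and C2, and 53.7 in WT SE, against 88.4 in WT C1, with a log2 fold change of -0.79 (standard error 0.12, adjusted p = 0.00748), and its corrected value of -0.31 missed the threshold (adjusted p = 0.0999). Nsdhl, Pmvk and Tm7sf2, which were higher in KO, had SE over C values of -0.04, 0.21 and 0.44 with adjusted p-values of 0.888, 0.409 and 0.170. Sqle, Cyp51 and Msmo1 had 0.39, 0.62 and 0.15, none past the threshold.

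**Figure D4:**
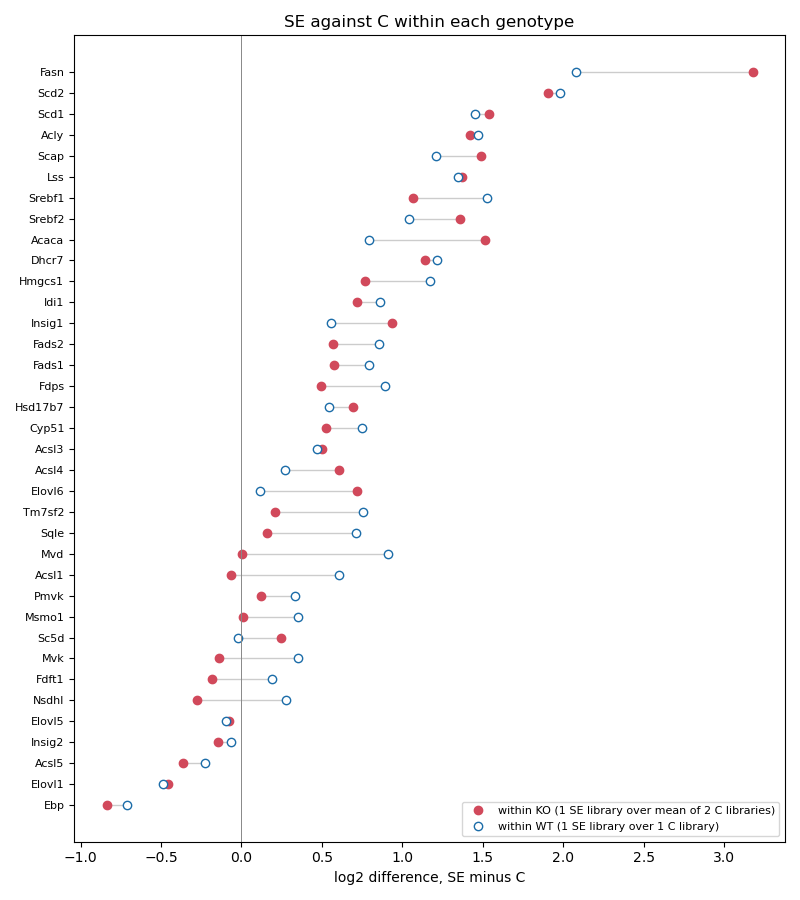
Log2 difference of SE minus C within KO (filled, 1 SE library against the mean of 2 C libraries) and within WT (open, 1 library of each), genes ordered by the joint fold change. Fasn and Scd2 lie farthest right in both genotypes, Ebp and Elovl1 farthest left, and Fasn has the widest gap between the genotypes.

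Whether SE against C differed between the genotypes was tested as an interaction, with 1 residual degree of freedom. None of the 12484 genes was called by limma (327 genes, 2.62%, had an unadjusted p under 0.05), and of the 36 genes only Fasn was among these (interaction 1.10 on the log2 scale, adjusted p = 1.00). For 28 of the 36 genes the interaction was smaller than 0.5 in size, and the share of all genes under this size is not given here. With 1 SE library per genotype, the design could not detect small differences.

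The upstream sequences of 3 genes higher in SE are shown, 1 from sterol and 2 from fatty acid synthesis, since these are the groups that SREBP is known to switch on together. Each is the 250 bases before the start in RefSeq (GRCm38.p6): Hmgcs1 at chr13:119690101-119690350 (plus strand), Fasn at chr11:120824548-120824797 (minus strand) and Acly at chr11:100528001-100528250 (minus strand). Capitals mark matches, on either strand, to the sterol regulatory element TCACNCCAC, the CCAAT box (CCAAT) and the GC box (GGGCGG).
Hmgcs1: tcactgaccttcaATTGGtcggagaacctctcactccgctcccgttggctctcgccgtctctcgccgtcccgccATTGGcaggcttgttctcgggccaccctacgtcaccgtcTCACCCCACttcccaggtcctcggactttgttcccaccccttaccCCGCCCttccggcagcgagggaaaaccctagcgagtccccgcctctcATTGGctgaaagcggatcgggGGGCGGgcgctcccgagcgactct
Fasn: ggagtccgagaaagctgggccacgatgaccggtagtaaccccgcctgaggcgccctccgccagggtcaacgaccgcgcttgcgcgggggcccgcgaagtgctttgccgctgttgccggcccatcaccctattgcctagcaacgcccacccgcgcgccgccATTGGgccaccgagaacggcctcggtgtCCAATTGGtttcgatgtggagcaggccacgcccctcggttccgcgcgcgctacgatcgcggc
Acly: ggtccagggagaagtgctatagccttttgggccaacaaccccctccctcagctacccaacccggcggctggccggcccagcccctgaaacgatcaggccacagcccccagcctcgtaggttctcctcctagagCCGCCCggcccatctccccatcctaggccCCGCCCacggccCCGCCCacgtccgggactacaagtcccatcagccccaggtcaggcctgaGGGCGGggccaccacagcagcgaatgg
In Hmgcs1 the sterol regulatory element started at -137, with CCAAT boxes at -237, -176 and -45 and GC boxes at -92 and -24. Fasn had CCAAT boxes at -90, -62 and -59, the last 2 overlapping on opposite strands, and Acly had 4 GC boxes, at -117, -88, -76 and -27, and no CCAAT box. No match to the sterol regulatory element was in the Fasn or the Acly window. RefSeq windows were matched for 30 of the 36 genes, which have 40 windows among them. The CCAAT box was in 25 of these windows (62.5%), against 35.6% of the 12161 windows of genes in the table and 33.9% of all 32851 windows. The GC box was in 28 (70.0%, against 57.9% and 32.7%), the E-box CACGTG in 6 (15.0%, against 8.22% and 6.02%) and the sterol regulatory element in 2 (5.0%, against 0.979% and 1.05%), those of Hmgcs1 and Acsl1. These matches describe the letters of the windows and are no evidence of binding.

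Of 5 other tested genes of sterol synthesis, 1 was higher and 1 lower in KO, against 17.2% and 17.1% of all genes. For the lists below, 17.4% of all genes were called higher in SE and 15.5% lower, or 10.4% and 7.67% after correction. Erg28, listed in the table as 0610007P14Rik and known in yeast as a scaffold of the sterol demethylation enzymes, had 148, 104 and 101 in KO C1, C2 and SE, against 52.5 and 34.1 in WT C1 and SE (log2 fold change 1.44, adjusted p = 0.0115). Lbr, a lamin B receptor that is also a sterol C14 reductase like Tm7sf2, had 107, 63.7 and 110.0 in KO C1, C2 and SE, against 201 and 224 in WT C1 and SE (log2 fold change -1.22, adjusted p = 0.0214), the opposite direction to Tm7sf2.

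Of 14 other genes that control SREBP or sterol synthesis, 1 was higher and 2 lower in KO, against 17.2% and 17.1% of all genes. Nr1h3, which encodes the oxysterol receptor LXR alpha, had 101, 157 and 105 in KO C1, C2 and SE, against 4.54 and 3.57 in WT C1 and SE (log2 fold change 4.72, adjusted p = 1.38e-04). Rnf145, a ubiquitin ligase, had 77.8, 65.7 and 97.9 in KO C1, C2 and SE, against 155 and 263 in WT C1 and SE (log2 fold change -1.34, adjusted p = 0.0173), and Mlx, a partner of the carbohydrate-response factor, had a log2 fold change of -0.85 (adjusted p = 0.0460). In SE, Mbtps1, the protease that makes the first cut of SREBP, Erlin2 and Rnf145 were higher (0.97, 0.64 and 0.58; adjusted p = 0.0101, 0.0114 and 0.0234) and 0 lower, and 1 of these 3, Erlin2, was called after correction.

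Of 17 genes of sterol uptake, transport and storage, 2 were higher and 2 lower in KO, against 17.2% and 17.1% of all genes. Lrp8 and Vldlr, lipoprotein receptors, were low in all 3 KO libraries. Lrp8 had 2.59, 2.38 and 5.23 in KO C1, C2 and SE, against 56.4 and 121 in WT C1 and SE (log2 fold change -4.49, adjusted p = 8.65e-04), and Vldlr had 0.282, 1.40 and 1.15 in KO C1, C2 and SE, against 24.6 and 23.7 in WT C1 and SE (log2 fold change -4.19, adjusted p = 8.67e-04). Npc2, a lysosomal sterol carrier, had 672, 951 and 419.9 in KO C1, C2 and SE, against 178 and 109.9 in WT C1 and SE (log2 fold change 2.20, adjusted p = 0.00732). In SE against C, 7 were higher and 2 lower (4 and 2 after correction), against 17.4% and 15.5% of all genes (10.4% and 7.67%). Osbp and Lrp1 rose by 1.10 and 1.62 (adjusted p = 0.00955 and 0.00977; corrected 1.10 and 0.68, adjusted p = 0.0152 and 0.0873).

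The supply of acetyl-CoA and NADPH held 4 genes higher in KO and 0 lower among 12 tested, against 17.2% and 17.1% of all genes. Idh1, cytosolic isocitrate dehydrogenase, had 873, 1139 and 865 in KO C1, C2 and SE, against 142 and 129 in WT C1 and SE (log2 fold change 2.80, adjusted p = 3.94e-04). Slc25a1, the mitochondrial citrate carrier, had 411, 406 and 336 in KO C1, C2 and SE, against 130.3 and 123 in WT C1 and SE (log2 fold change 1.60, adjusted p = 0.00230). Me3, a mitochondrial malic enzyme, was low, at 5.45 to 7.79 in KO libraries and 0.689 to 1.04 in WT libraries (log2 fold change 2.30, adjusted p = 0.00245). In SE against C, Acss2 and Acacb were higher (log2 fold changes 0.89 and 1.80) and G6pdx lower (-0.56), and after correction none of these 3 was called, while Me2 was lower (-0.61, adjusted p = 0.0247).

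Among 14 other elongases, desaturases and acyl-CoA synthetases, 2 were higher and 6 lower in KO, against 17.2% and 17.1% of all genes. Acsl6 had 0.282, 0.303 and 0.215 in KO C1, C2 and SE, against 11.0 and 13.1 in WT C1 and SE (log2 fold change -4.03, adjusted p = 1.70e-04). Acsbg1, a further acyl-CoA synthetase, had 3.01, 1.74 and 2.15 in KO C1, C2 and SE, against 44.0 and 42.8 in WT C1 and SE (log2 fold change -4.00, adjusted p = 3.19e-04). Elovl7 had 1.08, 0.908 and 1.07 in KO C1, C2 and SE, against 11.8 and 9.06 in WT C1 and SE (log2 fold change -2.84, adjusted p = 7.41e-04), and so was lower in KO like Elovl5. In SE against C, Acsf2 and Slc27a4 were higher (1.41 and 0.74) and Tecr, a reductase of the elongation cycle, was lower (-0.48), and after correction only Acsf2 was called.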

How the data were processed

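Single-end reads of 75 bp were made from poly(A) RNA, per the labels' protocols. The submitters' processing notes name STAR 2.5, featureCounts 1.5.2 and edgeR; the genome build, the annotation and the use of strand are not given in the sources used here, so overlapping and antisense genes are uncertain. The deposited values are a signal, that is, read numbers per gene that the authors scaled by library. They fell on whole reads for 100% of entries, at a tolerance of 0.02. Columns name a group and a suffix (C1, C2 or SE), which cannot be matched to the replicate numbers of the sample titles; the suffix, C or SE, was used as a block in 1 alternative.

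Limma 3.58.1 (trend) was run on log2 of the value plus 0.5, over genes at 1 or more in at least 2 libraries, with Benjamini-Hochberg adjustment over 12484 genes and a threshold of 0.05, in R 4.3.3. KO against WT had group as the only term (3 residual degrees of freedom), and SE against C had genotype as a term (2). Log2 fold changes understate changes of low genes; folds are ratios of means. Within groups, libraries differed beyond counting error (chi-square per degree of freedom 62.3 to 220). On the recovered reads, edgeR 4.0.16 and DESeq2 1.42.0 were alternatives, besides other scalings, pseudocounts, filters, variance settings, a suffix block and leaving out libraries. A correction for GC content and exon length with splines of 5 degrees of freedom was chosen after seeing the data. Ensembl identifiers were looked up in GENCODE M21 (GRCm38) for coordinates, exon lengths and GC content (12607 genes matched), and upstream sequences from RefSeq (GRCm38.p6). Exon length was that of all annotated exons of a gene joined, and GC content was that of its longest transcript. Corrected values and levels per kilobase rest on these lengths, which can exceed that of any single transcript.

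The 36 genes, 10 related lists and 5 marker lists were chosen with earlier results of these data known. Values in every library are printed for genes called in either comparison, the regulators and the 6 most abundant of the rest, and up to 3 called genes of smallest p per related list. Acsl1, Mvk, Elovl6, Me2, Hadha and Hadhb were named after their values were seen. Some genes of the related lists are not reported here.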

Additional observations from a re-analysis of the deposited data

How the results depend on the processing

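Over 19 alternatives for KO against WT and 13 for SE against C, no called gene among the 36 reversed its direction. Genes higher in KO numbered 4, but 7 with DESeq2 on the recovered reads, 7 with the GC and length correction, 15 with the suffix block, 14 without both SE libraries, and 1 to 6 when any 1 library was left out. Genes lower in KO numbered 2, but 4 with the suffix block, 5 without both SE libraries and 0 to 6 when 1 library was left out. Genes higher in SE numbered 15, and 0 to 21 when 1 library was left out. Genes lower in SE numbered 2, but 1 without a variance trend, 0 with the GC and length correction and 0 to 3 when 1 library was left out. On the higher side in SE, quantile normalization added Cyp51 and Acsl3, and Hsd17b7 and Fads2 were lost without a variance trend. With the GC and length correction 16 genes were higher in SE. On the higher side in KO, Tm7sf2 was lost with edgeR and Insig2 without a variance trend. Mvk and Acsl1 were added there with quantile normalization and with median-of-ratios factors. The cause of these shifts was not tested, except that leaving out a library leaves fewer samples. For most of these settings the share of all genes called is not given here. Nsdhl passed under 19 settings, Pmvk and Elovl5 under 16, Acsl4 under 15, Insig2 under 14 and Tm7sf2 under 13. The median of all genes in KO over WT was -0.09 as deposited, -0.08 with TMM, -0.06 with quantile normalization and -0.03 with median-of-ratios factors, and that of the 36 genes was 0.18, 0.18, 0.28 and 0.23 in the same order. No paired analysis was possible because the columns cannot be matched to the replicate numbers of the sample titles. The suffix that KO and WT libraries share was used as a block instead, as above. With 1 WT library of each suffix, the meaning of C and SE not given, and 1 residual degree of freedom for the interaction, small differences could not be detected. Read numbers limit Acaca most, with 56 reads in KO C1.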

Other observations

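Of 16 tested genes of fatty acid oxidation, 3 were higher and 0 lower in KO (Echs1, Cpt1c and Acaa2, with log2 fold changes of 1.18, 1.01 and 1.21), where 17.2% of all genes were called higher and 17.1% lower. The KO and WT libraries did not overlap, with KO higher, for 10 of them, against 28% of all genes. Echs1, the mitochondrial enoyl-CoA hydratase, had 241, 218 and 153 normalised counts in KO C1, C2 and SE, against 106 and 73.3 in WT C1 and SE (adjusted p = 0.0227). In SE against C, 2 were higher and 8 lower, against 17.4% and 15.5% of all genes. After the correction for length and GC content 0 were higher and 5 lower, led by Echs1 (-0.93, adjusted p = 0.0118). Before correction Echs1 was at -0.56 (adjusted p = 0.0157), and its length was taken as 8286 bases, all annotated exons together. The part of this length in its corrected value was not tested. The corrected shares of all genes were 10.4% and 7.67%. Hadha and Hadhb encode the subunits of 1 enzyme complex, and before correction Hadha was higher (0.45, adjusted p = 0.0409) and Hadhb lower (-0.51, adjusted p = 0.0247). After correction Hadha was at -0.01 (adjusted p = 0.973), and Hadhb was still lower (-0.60, adjusted p = 0.0237).

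Of 15 genes that assemble glycerolipids and lipid droplets, 3 were higher and 2 lower in KO. For this list and those that follow, 17.2% of all genes were called higher and 17.1% lower in KO. In SE against C the shares of all genes were 17.4% and 15.5%, and 10.4% and 7.67% after correction. Bscl2, which encodes seipin of the lipid droplet, had 122, 144 and 99.5 normalised counts in KO C1, C2 and SE, against 23.1 and 20.0 in WT C1 and SE (log2 fold change 2.45, adjusted p = 7.56e-04). Dgat2 and Agpat3 rose by 1.66 and 0.78 on the log2 scale (adjusted p = 0.0208 and 0.0238). In SE against C, 4 were higher and 0 lower (3 and 2 after correction), with Gpam, the first acyltransferase of triglyceride synthesis, at 1.82 (adjusted p = 0.00675; corrected 1.54, adjusted p = 0.0152). Sterol efflux and oxidation had 3 genes higher and 2 lower of 8 in KO, with log2 fold changes of -3.74 for Cyp7b1, 2.67 for Cyp27a1 and 5.52 for Apoe, and 0 called in SE against C by limma. Of 12 genes on the branches of the isoprenoid pathway, 1 was higher in KO (Nus1, 1.21) and 2 were lower (Coq2, -1.86, and Ggps1, -1.13), and in SE 1 was higher and 3 lower (1 and 0 after correction). Mitochondrial fatty acid synthesis had 2 genes higher of 5 in KO, Oxsm (1.72) and Cbr4 (1.23), and 1 lower in SE, Mecr (-0.69; 2 lower after correction).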
